A study of Mus musculus with 7 samples.

Results

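The BCL2 family decides whether a cell opens its mitochondria to the caspase cascade. Its survival members, encoded by Bcl2, Mcl1 and Bcl2l1 (BCL-XL), hold the pore-forming effectors BAX and BAK, encoded by Bax and Bak1, in check. The BH3-only proteins, here those of Bcl2l11 (BIM), Bbc3 (PUMA), Pmaip1 (NOXA), Bid and Bmf, bind the survival members or activate the effectors. Resting naive T cells are known to depend on BCL2, whose level is kept up by IL-7, and on MCL1, while BIM is a main mediator of T cell death after cytokine withdrawal. These 10 genes were taken by symbol from a deposited table of 34745 genes, and each symbol matched 1 row. All 10 passed the filter on low counts, as did 12668 genes of the table.

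The libraries came from splenic naive CD4 T cells of C57BL/6 males, 8 weeks old, isolated untreated and without culture by negative selection. There were 3 wild-type (WT) mice and 4 mice heterozygous for an activating mutation of Pik3cd, the gene of the p110delta subunit of phosphoinositide 3-kinase, called GOF here for gain of function; the labels describe the controls as littermates and do not name the mutation. The labels name no promoter or Cre that would limit the allele to a cell type. The study compared the genotypes.

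Total counts were between 14497957 and 16293539 per library. Values are CPM (counts per 1000000 counts, scaled with TMM factors) unless FPKM is named, and fold changes are GOF against WT. Pik3cd mRNA itself was lower in GOF (log2 fold change -0.80, SE 0.20, quasi-likelihood test of edgeR, adjusted p = 0.0154), with an adjusted p = 0.106 and a log2 fold change of -0.58 without GOF replicates 1 and 3. Those were the libraries with the highest summed level of 19 myeloid markers, at 685 and 710.4 CPM, against 248 and 279 CPM in GOF replicates 2 and 4 and 92.6 to 152 CPM in WT. Of these markers 16 rose, as did 7 of 12 B cell, 8 of 9 neutrophil, 8 of 10 NK and CD8 T cell and 4 of 6 red blood cell markers tested. Over all tested genes 16.8% rose. Summed B cell markers were at 381 to 520 CPM in WT and 798 to 1412 CPM in GOF, neutrophil markers at 0.766 to 10.1 and 62.2 to 225 CPM, NK and CD8 T cell markers at 62.6 to 83.0 and 135 to 187 CPM, and red blood cell markers at 4.39 to 18.5 and 19.1 to 71.5 CPM. Camp and Car1, markers on these lists, had 0 counts in the WT libraries. The summed level of 10 CD4 T cell markers was 7440 to 8269 CPM in WT and 8103 to 9216 CPM in GOF. Of these Cd3e, Cd3g, Cd4 and Trac rose, 3 fell, Lef1 and Il7r among them, and 3 did not pass the threshold. Genes that are high in naive cells were among the falls and among those that did not pass. The part of the other cells in the results below was not tested except where a value is given beside the result. In such bulk libraries fewer cells of a type and less RNA per cell cannot be told apart.

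Promoter windows at RefSeq start sites are shown for the 3 members that fell most and for Bak1, which rose, because the members moved in both directions. By the gene coordinates given below, the Mcl1 window ends at 95658770, before the start of the gene at 95658788. The Bak1 window lies within the gene, whose 5′ end on the minus strand is at 27029009. Each line gives 300 bases, 250 before to 50 after the RefSeq start site, 5′ to 3′ on the gene's own strand, from RefSeq on GRCm38.p6. Capitals mark a match, on either strand, to one of 5 short motifs. GTAAACA is the core bound by forkhead factors such as FOXO1, and TTCNNNGAA is bound by STAT factors. CACGTG is the E-box bound by MYC, and TGANTCA is bound by AP-1. TGACG is a half-site of the cAMP response element. No 2 matches overlap in these windows.
Bcl2 (chr1:106714241-106714540, minus strand): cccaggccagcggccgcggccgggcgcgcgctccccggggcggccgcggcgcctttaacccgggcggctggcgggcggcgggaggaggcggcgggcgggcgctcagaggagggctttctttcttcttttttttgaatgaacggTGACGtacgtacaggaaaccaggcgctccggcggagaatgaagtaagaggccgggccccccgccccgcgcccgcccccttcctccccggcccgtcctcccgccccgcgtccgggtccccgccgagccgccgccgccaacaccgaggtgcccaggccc
Mcl1 (chr3:95658471-95658770, plus strand): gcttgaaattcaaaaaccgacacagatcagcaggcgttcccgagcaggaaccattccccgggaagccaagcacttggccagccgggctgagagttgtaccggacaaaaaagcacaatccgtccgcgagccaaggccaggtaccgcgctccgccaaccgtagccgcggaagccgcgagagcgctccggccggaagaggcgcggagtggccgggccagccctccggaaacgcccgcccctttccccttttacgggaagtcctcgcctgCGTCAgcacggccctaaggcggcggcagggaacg
Bcl2l11 (chr2:128125788-128126087, plus strand): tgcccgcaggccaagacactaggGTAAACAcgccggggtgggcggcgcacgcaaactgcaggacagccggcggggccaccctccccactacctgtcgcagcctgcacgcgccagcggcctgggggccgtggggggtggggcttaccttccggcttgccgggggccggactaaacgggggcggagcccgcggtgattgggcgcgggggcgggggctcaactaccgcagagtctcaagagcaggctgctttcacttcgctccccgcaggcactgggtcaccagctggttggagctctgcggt
Bak1 (chr17:27028578-27028877, minus strand): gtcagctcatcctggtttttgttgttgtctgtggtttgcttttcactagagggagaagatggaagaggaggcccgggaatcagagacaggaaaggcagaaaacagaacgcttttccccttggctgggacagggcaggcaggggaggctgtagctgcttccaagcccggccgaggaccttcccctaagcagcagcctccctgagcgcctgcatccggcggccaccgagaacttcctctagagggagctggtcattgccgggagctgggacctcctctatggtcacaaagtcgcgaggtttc

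The Bcl2 window held 1 TGACG match at position -107. The Mcl1 window held 1 at position 17, read there as CGTCA because it lies on the other strand. Positions are counted from the RefSeq start site as 1, with the base before it as -1. The table held 32851 windows, and 20.81% of them hold this motif. The Bcl2l11 window held the forkhead core at position -227, a motif found in 3.65% of all windows. The Bak1 window held none of the 5. Over the 16 windows of the 9 members searched, the forkhead core also stood in 1 of 3 windows of Bbc3, E-boxes stood in windows of Bax and Bbc3, and TGACG also in windows of Bbc3 and Bmf. None of the 16 held the STAT or the AP-1 motif. Over all windows 8.30% hold the STAT motif, 7.15% the E-box and 7.81% the AP-1 motif. The windows of Bcl2, Mcl1 and Bcl2l11 were rich in CpG, with 44, 33 and 27 CpG dinucleotides against a median of 7 over all windows, and Bak1 had 11. A match describes letters in a window and does not show binding.

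Of the 10 members 5 fell and 2 rose in GOF cells, and 3 did not pass the threshold. Over all tested genes 14.5% were lower and 16.8% higher (edgeR quasi-likelihood, Benjamini-Hochberg adjusted over 12668 genes, threshold 0.05). The falls were Bcl2, Mcl1, Bcl2l11, Bbc3 and Bax, and the rises were Pmaip1 and Bak1. Each of the 3 functional classes thus held at least 1 gene that fell, and the effector and BH3-only classes each also held 1 that rose. The groups did not overlap for 7 members, a state found in 39.8% of tested genes. The median log2 fold change was -0.67 over the members and 0.01 over all tested genes. The members were chosen with earlier results of these data known, so their difference from all tested genes gives no independent support. The 7 calls held under RLE scaling, in DESeq2, without any single library, without GOF replicates 1 and 3 together and without 2 and 4 together. With the myeloid marker score, the mean log2(CPM + 0.5) of those markers, as a covariate, which itself is 1.11 to 1.51 in WT and 3.26 to 4.50 in GOF, 6 of the 7 calls were lost, with the direction kept (edgeR adjusted p = 0.180 to 0.399), and Bcl2 kept its call (log2 fold change -2.55, edgeR adjusted p = 0.00924).

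**Figure D1:**
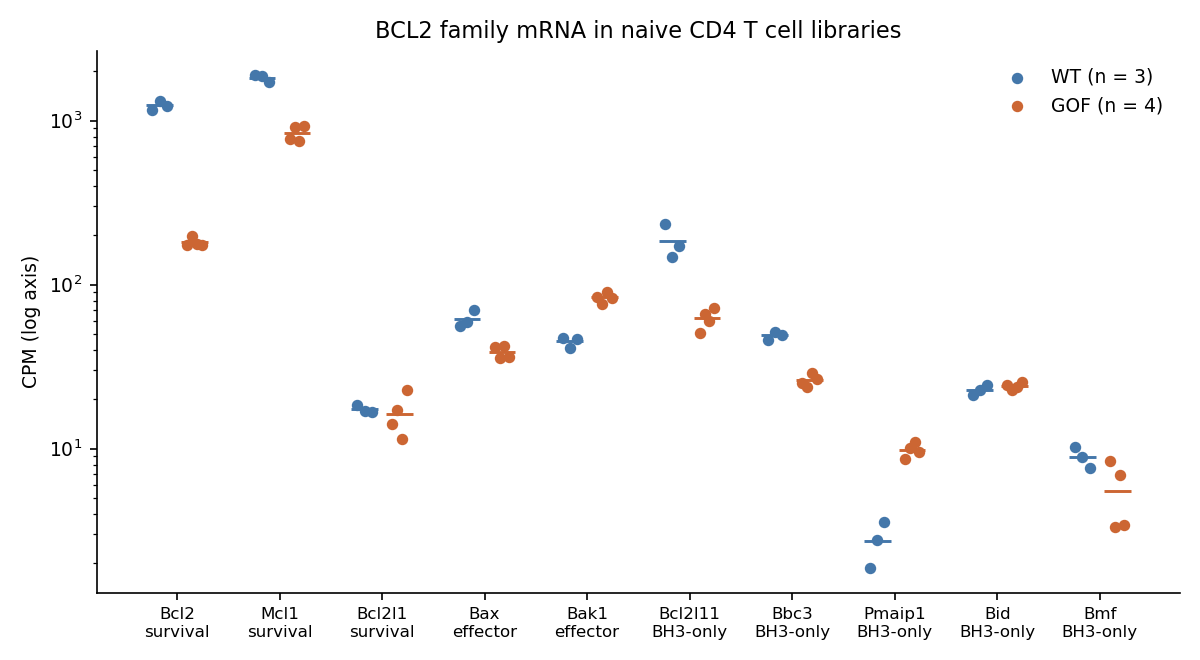
Level of each BCL2 family member in every library, in CPM on a log axis, for 3 WT (blue) and 4 GOF (orange) libraries, with a bar at each group mean. Bcl2 lies near 1238 CPM in WT and near 181 CPM in GOF, and the 2 groups overlap only for Bcl2l1, Bid and Bmf.

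Bcl2 showed the largest difference of the 10 members. Its mRNA (ENSMUSG00000057329, a protein-coding gene at mm10 chromosome 1, 106538178 to 106714274, minus strand) stood at 1169, 1311 and 1234 CPM in WT and at 175, 198, 177 and 174 CPM in GOF. The GOF libraries lay far below the WT libraries and close to each other, with a coefficient of variation of 6.29%. WT averaged 1238 ± 70.8 CPM (SD, n = 3) and GOF 181 ± 11.4 CPM (SD, n = 4). Bcl2 thus fell 6.84-fold (log2 fold change -2.77 with an SE of 0.08, edgeR adjusted p = 3.83e-07). Among the 2376 tested genes with at least 100 CPM in WT, 8 fell by more. Over 16 alternatives other than the covariate the log2 fold change ran from -2.82 to -2.63. An antisense gene annotated over its exons, D630008O14Rik, had a mean of 0 CPM in both groups.

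Mcl1, whose short-lived protein sequesters NOXA and BIM, was the most abundant member in both groups. It lies at mm10 chromosome 3, 95658788 to 95663176, plus strand (ENSMUSG00000038612). It measured 1889, 1860 and 1723 CPM in WT and 770.2, 913, 753 and 927 CPM in GOF. All GOF libraries were below all WT libraries, and GOF replicates 1 and 3 were the lowest. The mean fell from 1824 ± 88.5 to 841 ± 91.9 CPM (SD, n = 3 and 4), which is 2.17-fold lower (log2 fold change -1.12 with an SE of 0.10, edgeR adjusted p = 7.29e-05). It also passed without GOF replicates 1 and 3 (edgeR adjusted p = 0.00146) and without 2 and 4 (log2 fold change -1.25, edgeR adjusted p = 0.000552).

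Bcl2l1, which encodes BCL-XL, the survival member that activated T cells induce, did not pass. Its values were 18.5, 17.01 and 16.6 CPM in WT and 14.1, 17.1, 11.5 and 22.6 CPM in GOF (mm10 chromosome 2, 152780668 to 152831728, minus strand). GOF libraries lay on both sides of the WT range, and their coefficient of variation was 29.3% against 5.54% in WT. The log2 fold change was -0.09 (SE 0.22, edgeR adjusted p = 0.789). It turned to 0.05 without GOF replicate 3 (edgeR adjusted p = 0.869) and to 0.18 without GOF replicates 1 and 3 (edgeR adjusted p = 0.552). Without GOF replicates 2 and 4 it was -0.43 (edgeR adjusted p = 0.126), the lowest value of its alternatives.

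Summed over the 3 survival genes, WT libraries held 3077, 3188 and 2974 CPM and GOF libraries 959.8, 1129, 941 and 1123 CPM. The make-up of that sum differed as well. Bcl2 gave 38.0% to 41.5% of it in WT and 15.5% to 18.8% in GOF, while Mcl1 gave 58.0% to 61.4% in WT and 80.0% to 82.5% in GOF. Bcl2l1 gave at most 2.02% in any library. These shares are of counts and take no account of transcript length.

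The effectors went in opposite directions. Bax, whose protein moves from the cytosol to the mitochondria when activated, stood at 55.7, 59.02 and 69.9 CPM in WT and at 41.9, 35.9, 41.98 and 36.4 CPM in GOF (mm10 chromosome 7, 45461695 to 45466898, minus strand). The groups did not overlap. Its mean fell from 61.6 ± 7.41 to 39.05 ± 3.36 CPM, which is 1.58-fold lower (log2 fold change -0.66 with an SE of 0.11, edgeR adjusted p = 0.00283; SD, n = 3 and 4). Bak1, whose protein sits in the outer mitochondrial membrane, stood at 47.6, 40.9 and 46.7 CPM in WT and at 84.02, 76.5, 90.5 and 83.1 CPM in GOF (mm10 chromosome 17, 27019810 to 27029009, minus strand). All GOF libraries were above all WT libraries. Its mean rose from 45.06 ± 3.62 to 83.5 ± 5.73 CPM, 1.85-fold (log2 fold change 0.89 with an SE of 0.10, edgeR adjusted p = 0.000279).

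Exons of Bak1 overlap those of Ggnbp1 on the other strand, and the strand setting of the counts is not given in the sources used here, so reads of the pair cannot be told apart with certainty. Ggnbp1, named after its values were seen, stood at 3.23, 9.23 and 7.10 CPM in WT and at 39.5, 42.6, 42.5 and 5.08 CPM in GOF. In GOF replicate 4, where Ggnbp1 was at 5.08 CPM and within the WT range, Bak1 was at 83.1 CPM, between the other GOF libraries. Exons of Bax overlap Gm45808, a gene on the same strand that is not used here. Exons of Bid overlap those of Bcl2l13 on the other strand, which had 73.6 CPM in WT and 65.3 CPM in GOF (log2 fold change -0.17, edgeR adjusted p = 0.182).

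Of the BH3-only genes, 2 fell, 1 rose and 2 did not pass. Bcl2l11, which encodes BIM, a protein that binds all survival members, stood at 235, 148 and 173 CPM in WT and at 50.5, 66.2, 60.4 and 72.5 CPM in GOF (ENSMUSG00000027381, mm10 chromosome 2, 128126038 to 128162547, plus strand). WT replicate 1 was the highest, and the lowest WT library was still above the highest GOF library. The mean fell from 186 ± 44.8 to 62.4 ± 9.36 CPM, which is 2.97-fold lower (log2 fold change -1.57 with an SE of 0.17, edgeR adjusted p = 0.000219; SD, n = 3 and 4). Without WT replicate 1 the log2 fold change was -1.37 (edgeR adjusted p = 0.000528).

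Bbc3 encodes PUMA, a BH3-only protein induced by p53 and by FOXO3. It stood at 46.3, 51.6 and 49.4 CPM in WT and at 25.06, 23.8, 28.9 and 26.7 CPM in GOF (mm10 chromosome 7, 16309616 to 16318205, plus strand). The groups were well separated. Its mean fell from 49.07 ± 2.67 to 26.1 ± 2.21 CPM, which is 1.88-fold lower (log2 fold change -0.91 with an SE of 0.10, edgeR adjusted p = 0.000289; SD, n = 3 and 4).

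Pmaip1 encodes NOXA, which binds MCL1 by preference and is also a p53 target. It stood at 1.87, 2.75 and 3.55 CPM in WT, from 26, 40 and 51 counts, and at 8.66, 10.03, 10.9 and 9.58 CPM in GOF, from 133, 157, 182 and 149 counts. All GOF libraries were above all WT libraries, and the WT counts were the lowest of any member. Its mean rose 3.59-fold from 2.72 ± 0.842 to 9.80 ± 0.953 CPM (log2 fold change 1.84 with an SE of 0.25, edgeR adjusted p = 0.000689; SD, n = 3 and 4). On the log2(FPKM + 1) scale of limma, which understates changes of low genes, the log2 fold change was 1.27 (limma adjusted p = 0.000277).

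Bid, which links death receptors to the mitochondria once caspase-8 cuts its protein, did not pass. It stood at 21.3, 22.9 and 24.6 CPM in WT and at 24.5, 22.7, 23.8 and 25.7 CPM in GOF (log2 fold change 0.08 with an SE of 0.11, edgeR adjusted p = 0.644; mm10 chromosome 6, 120891930 to 120916853, minus strand). The groups overlapped over most of their range. Bmf, whose protein is bound to the cytoskeleton in healthy cells, stood at 10.3, 8.88 and 7.59 CPM in WT and at 8.46, 3.32, 6.92 and 3.41 CPM in GOF (mm10 chromosome 2, 118528757 to 118549687, minus strand). GOF replicates 1 and 3 lay at or near the WT range, and GOF replicates 2 and 4 lay well below it. The log2 fold change was -0.69 (SE 0.34, edgeR adjusted p = 0.161) with all libraries and -1.41 (edgeR adjusted p = 0.0125) without GOF replicates 1 and 3, in which the myeloid markers were highest. Without GOF replicates 2 and 4 it was -0.20 (edgeR adjusted p = 0.573).

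**Figure D2:**
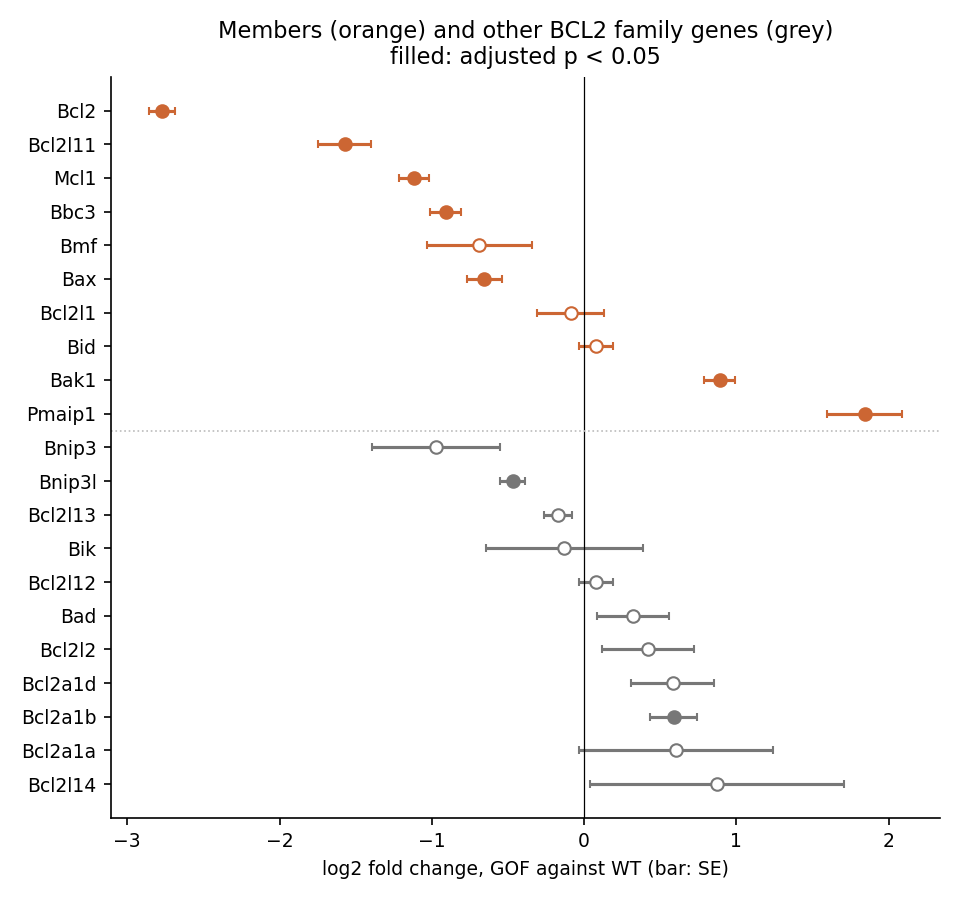
The log2 fold change (GOF against WT, 4 and 3 libraries) with its SE for the 10 members (orange, upper block) and the 11 other BCL2 family genes tested (grey), filled where the edgeR adjusted p was below 0.05. Bcl2 at -2.77 and Pmaip1 at 1.84 mark the ends of the range, and most of the other family genes are open symbols.

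Levels of different genes can be set side by side per transcript length only, for which the deposited FPKM was used. In WT the order was Mcl1 (439 FPKM), Bcl2 (120 FPKM), Bax (68.7 FPKM), Bbc3 (16.5 FPKM), Bcl2l11 (11.6 FPKM), Bak1 (9.94 FPKM), Bid (4.07 FPKM), Bcl2l1 (1.41 FPKM), Pmaip1 (1.00 FPKM) and Bmf (0.849 FPKM). The libraries of Bcl2l11 and Bak1 overlapped there, as did those of Pmaip1 and Bmf. In GOF the order was Mcl1 (213 FPKM), Bax (45.9 FPKM), Bak1 (19.4 FPKM), Bcl2 (18.4 FPKM), Bbc3 (9.24 FPKM), Bid (4.52 FPKM), Bcl2l11 (4.11 FPKM), Pmaip1 (3.79 FPKM), Bcl2l1 (1.402 FPKM) and Bmf (0.556 FPKM). Bak1 and Bcl2 overlapped there, and so did Bid with Bcl2l11 and Bcl2l11 with Pmaip1. Bcl2 thus stood the second highest of the 10 in WT and the fourth highest in GOF. The length behind the deposited FPKM was 0.551 (Bax) to 2.60 (Bcl2l1) times the summed exon length in GENCODE M21. With the latter in its place, Bak1 was at 35.5, Bax at 25.3 and Bcl2 at 20.2 counts per kilobase and per 1000000 counts in GOF, so the order of Bax and Bak1 rests on the length used. The same holds for Bcl2l11 and Bid in GOF (7.94 and 6.96 with that length) and for Bmf and Pmaip1 in WT (1.64 and 0.969).

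Ratios of a survival gene to a death gene whose products bind each other were described for 3 pairs, without a test. The ratio of Bcl2 to Bcl2l11 FPKM was 7.69, 13.7 and 11.02 in the WT libraries and 5.38, 4.63, 4.53 and 3.71 in the GOF libraries. Both mRNAs fell, and since Bcl2 fell further the log2 ratio went from 3.39 ± 0.42 to 2.18 ± 0.22 (SD, n = 3 and 4), with no overlap between the groups. The ratio of Mcl1 to Pmaip1 was 664, 444 and 319 in WT and 58.4, 59.8, 45.2 and 63.5 in GOF. Its log2 value went from 8.83 ± 0.53 to 5.82 ± 0.22, the largest shift of the 3 pairs. The log2 ratio of Bcl2l1 to Bax was -5.60 ± 0.24 in WT and -5.07 ± 0.53 in GOF, and its groups overlapped. The size of a ratio depends on the lengths used, while its difference between the groups does not.

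**Figure D3:**
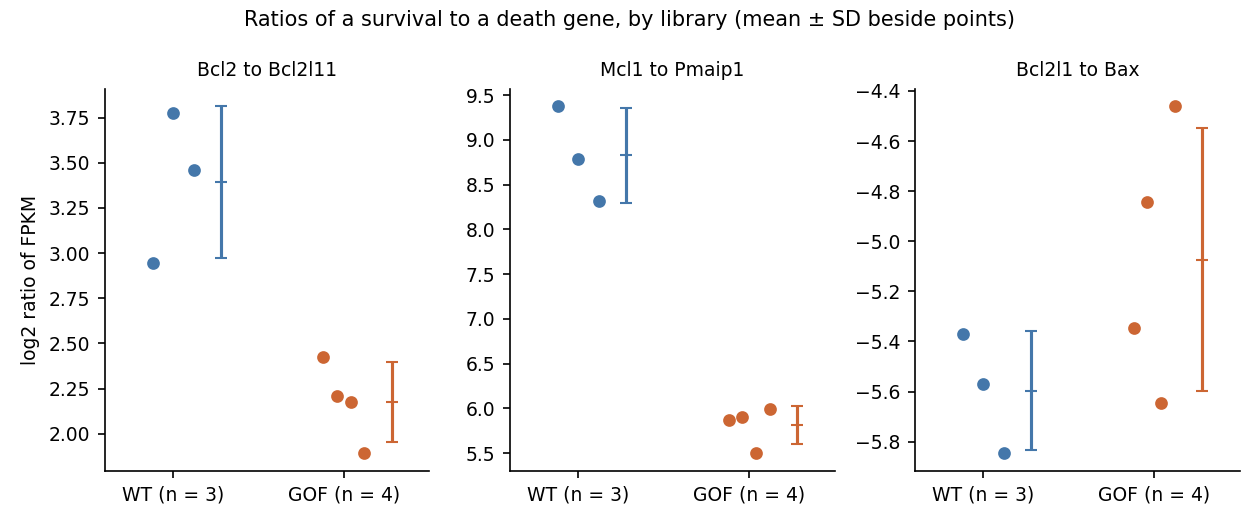
Log2 ratio of deposited FPKM for 3 pairs of a survival and a death gene in each of the 3 WT and 4 GOF libraries, with mean ± SD beside the points. The ratios of Bcl2 to Bcl2l11 and of Mcl1 to Pmaip1 are lower in every GOF library than in any WT library, and those of Bcl2l1 to Bax overlap.

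Among 17 further BCL2 family genes, 11 were tested, 1 rose and 1 fell, with a median log2 fold change of 0.32 against 0.01 over all tested genes. Counts for this list and the lists below stand beside shares of 16.8% higher and 14.5% lower over all tested genes. Bnip3l (NIX), a mitochondrial receptor for mitophagy, fell from 186 ± 12.4 to 134 ± 6.45 CPM (log2 fold change -0.47 with an SE of 0.08, edgeR adjusted p = 0.00267; SD, n = 3 and 4). Bcl2a1b, a survival gene with near-identical copies whose counts are therefore uncertain, rose from 9.04 ± 0.661 to 13.6 ± 1.54 CPM (log2 fold change 0.59 with an SE of 0.16, edgeR adjusted p = 0.0189). Its call was lost without WT replicate 3, GOF replicate 3 or GOF replicate 4 (edgeR adjusted p = 0.0532 to 0.0660). Myeloid and neutrophil cells also express this gene, and their markers were higher in the same libraries; their part in this rise was not tested. Bcl2l10, Bcl2a1c and Hrk had 0 counts in all 7 libraries.

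Of 18 genes of the apoptosome, the caspases and the inhibitor of apoptosis proteins, 2 rose and 4 fell, with a median of -0.02. Birc5 (survivin), a mitotic gene as much as an apoptosis inhibitor, rose from 0.999 ± 0.457 to 5.37 ± 1.57 CPM (log2 fold change 2.42, edgeR adjusted p = 0.00184). Diablo (SMAC), which frees caspases from their inhibitors, fell from 76.1 to 56.7 CPM (edgeR adjusted p = 0.0175). Birc6, a giant ubiquitin ligase that restrains caspases, fell from 341 to 227 CPM (edgeR adjusted p = 0.0176). The call of Diablo did not hold without WT replicate 1, WT replicate 3 or GOF replicate 1 (edgeR adjusted p = 0.0507 to 0.0672), and that of Birc6 without WT replicate 2 or 3 (0.0585 and 0.0604). Apaf1, the scaffold of the apoptosome, and Casp9, the caspase it activates, named after their values were seen, also fell (edgeR adjusted p = 0.0484 and 0.0423). Apaf1 lost its call without any single library except WT replicate 1 and GOF replicate 2 (edgeR adjusted p = 0.0647 to 0.164), and Casp9 without any except GOF replicates 1 and 2 (0.0623 to 0.0900). Of 10 mitochondrial partners and BAG proteins Bag3, a co-chaperone, was the 1 that passed, rising from 16.4 ± 4.21 to 31.3 ± 2.04 CPM (log2 fold change 0.94 with an SE of 0.18, edgeR adjusted p = 0.00423).

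The list of transcription factors and cytokine signalling genes known to act on the family held 4 rises and 7 falls among 19 tested genes, with a median of -0.19. Over all tested genes 16.8% rose and 14.5% fell. Foxo1, a transcription factor that AKT keeps out of the nucleus, rose from 252 ± 31.5 to 582 ± 50.8 CPM (log2 fold change 1.21 with an SE of 0.11, edgeR adjusted p = 8.7e-05). Jak3, the kinase of the common gamma chain, rose from 127 to 340.4 CPM (edgeR adjusted p = 0.000281), and E2f1, a factor of the G1 to S transition, from 2.03 to 6.38 CPM (edgeR adjusted p = 0.00112). Myc fell from 222 ± 42.9 to 86.4 ± 10.1 CPM (log2 fold change -1.36 with an SE of 0.14, edgeR adjusted p = 0.000178). Il7r, the IL-7 receptor alpha chain, named after its values were seen, stood at 682, 1158 and 877 CPM in WT and at 499, 428, 479 and 392 CPM in GOF. Its groups did not overlap, and it fell 2.01-fold (log2 fold change -1.01 with an SE of 0.17, edgeR adjusted p = 0.00211). The other falls were Stat5b, Rela, Nr3c1, Klf2 and Runx1, with log2 fold changes from -0.63 (Klf2) to -0.32 (Runx1), and the other rise was Tsc22d3 (GILZ), at 0.71; these 6 were named after their values were seen. Nr3c1 lost its call without WT replicate 3 (edgeR adjusted p = 0.0540) and Runx1 without WT replicate 1 or 3 (0.0515 and 0.0544). Trp53, the p53 gene, also named afterwards, did not pass (log2 fold change -0.18, edgeR adjusted p = 0.216).

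Of 13 tested genes for the turnover and anchoring of MCL1 and BIM, 3 rose and 2 fell, with a median of 0.15. Huwe1 (MULE), a ubiquitin ligase of MCL1, fell from 649 ± 93.05 to 456 ± 72.2 CPM (log2 fold change -0.51, edgeR adjusted p = 0.0212), and Usp9x, which removes ubiquitin from MCL1, from 119 ± 38.5 to 65.9 ± 21.7 CPM (log2 fold change -0.85, edgeR adjusted p = 0.0402). Dynll1, a dynein light chain that binds BIM, rose from 70.7 to 101 CPM (edgeR adjusted p = 0.0281), and Gsk3a, a kinase, from 196 to 237 CPM (edgeR adjusted p = 0.0337). Btrc, a ubiquitin ligase subunit named after its values were seen, was the other rise (log2 fold change 0.39, edgeR adjusted p = 0.0459). All 5 calls depended on single libraries. That of Huwe1 was lost without WT replicate 2 or GOF replicate 1 or 3 (edgeR adjusted p = 0.0557 to 0.0682) and that of Usp9x without any single library except WT replicate 1 and GOF replicate 2 (0.0788 to 0.144). The call of Dynll1 was lost without any single library except GOF replicates 1 and 3 (0.0562 to 0.0876), while Gsk3a and Btrc lost theirs without any except GOF replicate 2 (0.0561 to 0.0947 and 0.0735 to 0.118).

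Of 14 tested targets of p53 other than the members, 2 rose and 1 fell, with a median of 0.16. Sesn1, a sestrin that FOXO factors also induce, fell from 183 ± 22.6 to 97.2 ± 5.67 CPM (log2 fold change -0.91 with an SE of 0.10, edgeR adjusted p = 0.000244). Btg2, an antiproliferative gene, rose from 262 to 324 CPM (edgeR adjusted p = 0.0261) and Ccng1, a cyclin, from 141 to 171 CPM (edgeR adjusted p = 0.0492). The call of Btg2 was lost without WT replicate 3 or GOF replicate 3 or 4 (edgeR adjusted p = 0.0565 to 0.101) and that of Ccng1 without any single library except WT replicate 2 and GOF replicate 3 (0.0872 to 0.145). Over the 6 lists together 13 of 85 tested genes rose and 15 fell, near the background of 16.8% and 14.5%.

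**Figure D4:**
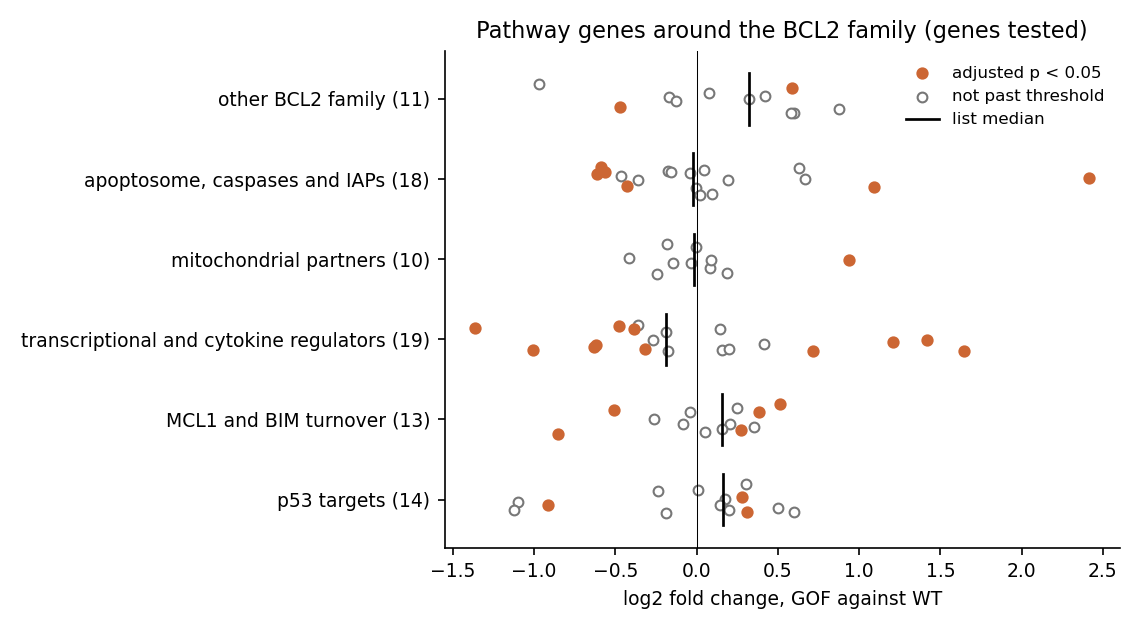
Log2 fold change (GOF against WT) of each tested gene on 6 lists around the BCL2 family, filled where the edgeR adjusted p was below 0.05, with a bar at the list median. The list medians lie between -0.19 and 0.32, and Birc5 at 2.42 is the farthest point.

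By position, several genes near Mcl1 and near Bak1 also passed the threshold. Within 100 kb of Bcl2l1 1 of 4 tested genes rose, of Bax 2 of 8 and of Bmf 1 of 3, with no falls. Near Bbc3 1 of 6 rose and 1 fell. Near Bid none of 3 passed, and near Pmaip1 no gene was tested. Of 7 tested genes within 100 kb of Mcl1 4 fell, with a median log2 fold change of -0.79, where 14.5% of all tested genes fell. Of 8 tested genes within 100 kb of Bak1, the overlapping Ggnbp1 included, 4 rose and 1 fell, with a median of 0.32, where 16.8% of all tested genes rose. Ggnbp1 lost its call without WT replicate 1 or 3 and without GOF replicate 1, 2 or 3 (edgeR adjusted p = 0.0520 to 0.0826). Adamtsl4, a matrix protein 13.025 kb from the nearest end of Mcl1, fell from 151 ± 30.3 to 8.29 ± 1.28 CPM (log2 fold change -4.18, edgeR adjusted p = 1.48e-06). Ecm1, 70.971 kb away, fell from 2837 ± 755 to 71.8 ± 6.39 CPM (log2 fold change -5.30, edgeR adjusted p = 5.90e-07). Tars2 and Rprd2, farther on the same side, also fell, by 1.28 (edgeR adjusted p = 0.000122) and 0.79 (edgeR adjusted p = 0.00635) on the log2 scale. On the other side Golph3l, Ensa and E330034L11Rik did not pass (log2 fold changes -0.11, -0.23 and -0.11; adjusted p by edgeR 0.878, 0.0511 and 0.773). The neighbours given here for Mcl1, Bcl2 and Bcl2l11 were named after their values were seen. Beside Bcl2, Kdsr, 6.185 kb away, fell (log2 fold change -0.72, edgeR adjusted p = 0.000674) and Vps4b, 49.797 kb away, did not pass (-0.05, 0.646). The 2 tested genes within 100 kb of Bcl2l11, Acoxl and Gm14005, rose while Bcl2l11 fell (edgeR adjusted p = 0.0264 and 0.0117). The call of Acoxl held only without WT replicate 3, GOF replicate 2 or GOF replicate 4, and was lost without any of the other 4 (edgeR adjusted p = 0.0609 to 0.0714). Gm14005 could be tested in 4 of the 7 fits that left out 1 library, and passed in these (edgeR adjusted p = 0.0110 to 0.0432); without GOF replicate 1, 3 or 4 it did not pass the count filter. Both were low, Acoxl at 2.097 CPM in WT and 4.37 CPM in GOF and Gm14005 at 0.0479 and 0.775 CPM.

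**Figure D5:**
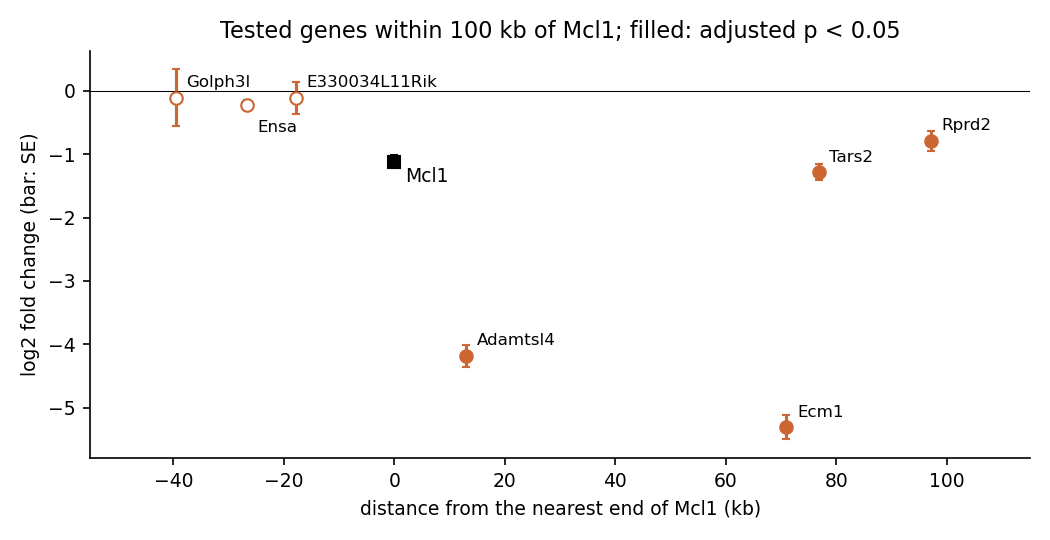
Log2 fold change with SE of Mcl1 (black square) and of the 7 tested genes within 100 kb, against the distance from the nearest end of Mcl1 in kb, filled where the edgeR adjusted p was below 0.05. The 4 genes on the right are lower in GOF and the 3 on the left did not pass.

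The genes whose profile over the 7 libraries was nearest to a member were found by the root mean square difference of centred log2(CPM + 0.5) values. For Bcl2 they were Tmem64 (0.054), Dst (0.106) and Sh3bp5 (0.128), with log2 fold changes of -2.72, -2.83 and -2.59. For Mcl1 they were Ager (0.069), Pik3r5 (0.070), which encodes a regulatory subunit of PI3K gamma, and Acpp (0.075). Their log2 fold changes were -1.07, -1.08 and -1.20. For Bcl2l11 they were Fam20c (0.155), Tnfrsf18 (0.155), which encodes the receptor GITR, and Twf2 (0.157). Their log2 fold changes were -3.09, -1.63 and -1.47. Fam20c was low, at 1.95 CPM in WT and 0.223 CPM in GOF, so the added 0.5 CPM shrank its difference on this scale. These distances are descriptions that follow mainly from the size of the genotype difference on that scale.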

How the data were processed

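RNA from naive CD4 T cells of 3 WT and 4 GOF mice was sequenced as paired-end TruSeq libraries, per the labels' protocols. The authors deposited raw counts and FPKM values per gene and library; the submitters' processing notes name HISAT2 2.0.4, Cufflinks 2.1.1, Cuffdiff and mm10, without roles. How reads were counted, and with which strand option, is not given in the sources used here. Groups and replicate numbers came from sample titles, and columns were matched through the sample descriptions.

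Counts of the whole table were tested with edgeR 4.0.16 (quasi-likelihood, filterByExpr, TMM, all 7 libraries, Benjamini-Hochberg adjustment over 12668 genes, threshold 0.05) in R 4.3.3. Alternatives used limma 3.58.1 on log2(FPKM + 1) and log2(FPKM + 0.1), DESeq2 1.42.0, RLE scaling, other filters, fewer libraries, a marker score covariate and a replicate block. The edgeR step was tested on simulated data. Each library is 1 mouse. The members, the gene lists and the alternatives were chosen with earlier results of these data known, so they give no independent support. Named genes are the members, Pik3cd, other family genes past the threshold, up to 4 genes with the smallest p per further list, the 3 nearest profiles of the 3 members with the smallest p, and those said to be named after their values were seen. Of the symbols used, Itgam had several rows, and the row with most counts was taken. Promoter windows of 9 members were taken by symbol from the RefSeq table, and their sense was checked against GENCODE transcripts; the ends of 3 of the 16 windows, that of Mcl1 and 2 of Bbc3, matched no transcript on either strand, so the check gave no answer there. Protein sequences were not used here, and some genes of the lists that the counts include are not reported here by name. SE values come from the fold change and the F statistic.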

Additional observations from a re-analysis of the deposited data

Results flagged for a closer look

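In 5 of the 57 groups of 4 GOF libraries tested, 1 group for each named gene, 1 library stood apart from the other 3 by more than the critical value of Dixon's test, which chance exceeds in about 1 in 20 groups. For Bcl2 it was GOF replicate 2 at 198 CPM, against 174 to 177 CPM in the others, a gap that is small beside the WT level of 1238 CPM. For Diablo it was GOF replicate 4 at 61.7 CPM, against 54.5 to 55.6 CPM. For Ggnbp1, which overlaps Bak1 on the other strand, it was GOF replicate 4 at 5.08 CPM, against 39.5 to 42.6 CPM. For Runx1 it was GOF replicate 4 at 96.2 CPM, against 113 to 116 CPM. For Tnfrsf18 it was GOF replicate 4 at 67.8 CPM, against 49.98 to 52.9 CPM.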

How the results depend on the processing

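Over all genes 2130 were higher and 1838 lower. Limma on log2(FPKM + 1) gave 2598 and 1390, so that 65.1% of calls were rises against 53.7%, and limma on log2(FPKM + 0.1) gave 2673 and 1384; without a count filter the median log2 fold change of all genes was 0.10. At a mean FPKM of at least 5, where 6 members remain tested, the counts were 1093 and 1069, and 1 member rose and 5 fell. Without GOF replicates 1 and 3 they were 1074 and 1050, and Bmf passed (-1.41). With the myeloid score as covariate they were 79 and 61; 0 members rose (1 at an unadjusted p under 0.05, and 2 in DESeq2 and limma without the covariate) and 2 fell, Bcl2 and Bmf. That covariate differs between the genotypes, and 42 of 53 named calls were lost with it while keeping their direction. It gave log2 fold changes of opposite sign for Bcl2l1 (1.11), Apaf1 (0.0549), Btrc (-0.19), Birc6 (0.36), Huwe1 (0.089), Usp9x (0.63) and Pik3cd (0.28). Bcl2l1 ran from -0.293 to 0.0523 when 1 library was left out, turning without GOF replicate 3, and was 0.18 without 1 and 3; the cause was not tested. The pathway lists, with 13 rises and 15 falls, gave 17 and 10 in both limma settings, so that rises outnumbered falls there, 8 and 6 without GOF replicates 1 and 3, 7 and 9 without 2 and 4, and 0 and 0 with the covariate (5 and 8 at an unadjusted p under 0.05). Leaving out 1 library gave 7 to 12 rises and 8 to 16 falls, with 7 rises without WT replicate 3 or GOF replicate 4 and 8 falls without WT replicate 3, and 2 and 5 for the members each time. With replicate number as a block the lists gave 8 rises, and the members 2 and 5. The labels do not state that the numbers pair the mice. Deviations of same-numbered libraries correlated at 0.03, 0.15 and -0.04 for numbers 1 to 3, and not every library correlated best with its own number. With so few libraries per group, these correlations cannot decide whether the mice were paired. Depth limits mainly Pmaip1, with 26 to 182 counts per library, and Bmf, with 52 to 143.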
